A study of Mus musculus with 14 samples.

Results

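The genes described here build, branch, shorten and anchor the actin filaments of T helper type 1 (Th1) cells. They were chosen by name and role, with earlier results of these data known. The list held 53 names for 52 genes, since Diap1 is an older name of Diaph1. A gene was read from probe sets that carry its symbol alone, and its value was that of the probe set with the highest mean log2 intensity over all arrays. In this way 48 of the 18193 genes on the array were members, and all 48 passed the filter that kept the brightest 60% of genes, 10915 in all. Actr2, Arpc1b, Arpc3 and Rock2 had no such probe set, and the 2 probe sets of Arpc1b also carried the symbol Gm5637.

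RNA came from CD4+ T cells of OT-II mice aged 6 to 10 weeks, which carry a transgenic T cell receptor for an ovalbumin peptide. In all groups the cells had been polarized to Th1 cells and activated repeatedly with irradiated antigen-presenting cells (Th1 rep cells), and after the fourth round they were incubated for 1.5 h with 1 µM of an antagomir and reactivated with antibodies against CD3 and CD28 in the presence of IL-12, IL-2 and an antibody against IL-4. One set of cells received Antagomir-31, a cholesterol-coupled antisense oligonucleotide against miR-31, and their controls received the unspecific Antagomir-SCR. Each treatment had 2 Mouse 430_2 arrays after 36 h, 2 more after 48 h and 3 after 72 h, 14 in all. Since no label says that replicates came from separate cultures, the p-values describe the scatter of these arrays alone, part or all of which could be technical.

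Actin monomers are kept ready by profilin and the thymosins and are assembled into filaments by nucleators: the Arp2/3 complex, which WASP and the WAVE complex switch on and which makes branched networks, and the formins, which make unbranched filaments. Cofilin, gelsolin-family proteins and capping proteins shorten filaments or stop their growth, ERM proteins tie them to the plasma membrane, myosin II pulls on them, and talin, vinculin and α-actinins link them to integrins. T cells use this machinery to form the immunological synapse and to migrate.

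The antagomir was directed against the miRNA mmu-miR-31-5p, whose seed (bases 2 to 8, in capitals) pairs with target mRNAs; it lies on chr4:88910614-88910635 of GRCm38.p6, minus strand.
mmu-miR-31-5p: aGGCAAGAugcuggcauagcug
Among the members, Actg1 and Rdx stand on the study's list of putative miR-31 targets. Many actin genes are also known targets of serum response factor, which binds CArG boxes and whose cofactors sense the pool of free actin. A CArG box, a palindromic motif of 10 bases searched on both strands, was present in the window from 250 bases before to 50 bases after the gene start in 4 of the 40 members with a RefSeq promoter sequence (10.0%), against 488 of 27025 genes (1.81%), and 8 members had no such sequence. The 4 stretches are shown from GRCm38.p6 with the box in capitals because these genes behaved differently from one another over time, as described further on. They lie on chr11:120348551-120348610 (minus strand, box starting 90 bases before the gene start), chr6:113377863-113377897 (plus strand, 250 bases), chr10:128493025-128493084 (minus strand, 50 bases) and chr14:20929148-20929205 (plus strand, 227 bases), in the order printed.
Actg1: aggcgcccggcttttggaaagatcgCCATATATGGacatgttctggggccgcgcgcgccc
Arpc4: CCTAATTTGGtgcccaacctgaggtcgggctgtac
Myl6: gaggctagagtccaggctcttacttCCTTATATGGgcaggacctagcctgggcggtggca
Vcl: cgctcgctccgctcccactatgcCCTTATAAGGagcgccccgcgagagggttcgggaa
A match describes the letters of the window and shows neither binding nor regulation.

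Arrays of 1 time point correlated with each other at 0.997 to 0.998 across genes, which are not independent replicates. The median intensity of an array lay between 23.4 and 23.8 at 36 h, between 21.8 and 22.1 at 48 h and between 27.9 and 28.4 at 72 h, so each time point seems to have been normalized by itself. Treatments were therefore compared within a time point on the deposited intensities, and times were compared after quantile normalization over all 14 arrays. Of the T cell markers, 6 of 7 were measured, and all 6 had a mean log2 intensity of at least 6, as did 4 of 5 Th1 markers. No measured marker of B cells, dendritic cells or CD8 T and NK cells reached that level, and of the macrophage and monocyte markers only Csf1r did. Of the 5 stromal markers only Vim did, the gene of vimentin, which T cells express too, and the summed intensity of that list at 72 h ranged from 10916 to 11227 with Antagomir-31, against 10455 to 10716 with Antagomir-SCR. The part of these genes in the results was not tested.

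At 36 h, 48 h and 72 h, most actin genes of Th1 rep cells treated with Antagomir-31 lay close to those of Antagomir-SCR treated cells. The median size of the members' log2 fold change was 0.031, 0.047 and 0.049, beside 0.046, 0.050 and 0.061 over all genes tested. At 48 h the widest changes included Fmnl1 (-0.29), Actn1 (-0.20) and Ezr (0.17). At 72 h the smallest p-values belonged to Rdx, which encodes the membrane-actin linker radixin, and Ppp1cb, a catalytic subunit of myosin phosphatase. Their log2 fold changes were 0.26 and 0.21. None of the 48 members passed the test for an antagomir effect at any time. In limma, with p adjusted over the 10915 genes by the method of Benjamini and Hochberg and a threshold of 0.05, the background was 0% of all genes at 36 h, 0% at 48 h and 1.10% at 72 h. Unadjusted p was under 0.05 for 0 members at 36 h, 4 at 48 h and 11 at 72 h (0%, 8.33% and 22.9%), against 5.36%, 5.99% and 17.7% of all genes tested. The median log2 fold change of the members, Antagomir-31 over Antagomir-SCR, was 0.016 at 36 h, 0.010 at 48 h and 0.003 at 72 h, beside 0.001, -0.007 and -0.009 over all genes tested. The 95% interval of the fold change lay within 1.25-fold in either direction for 46 of 48 members at 36 h, for 42 at 48 h and for 44 at 72 h, where the exceptions were Rdx, Ppp1cb, Fmnl1 and Scin.

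**Figure D1:**
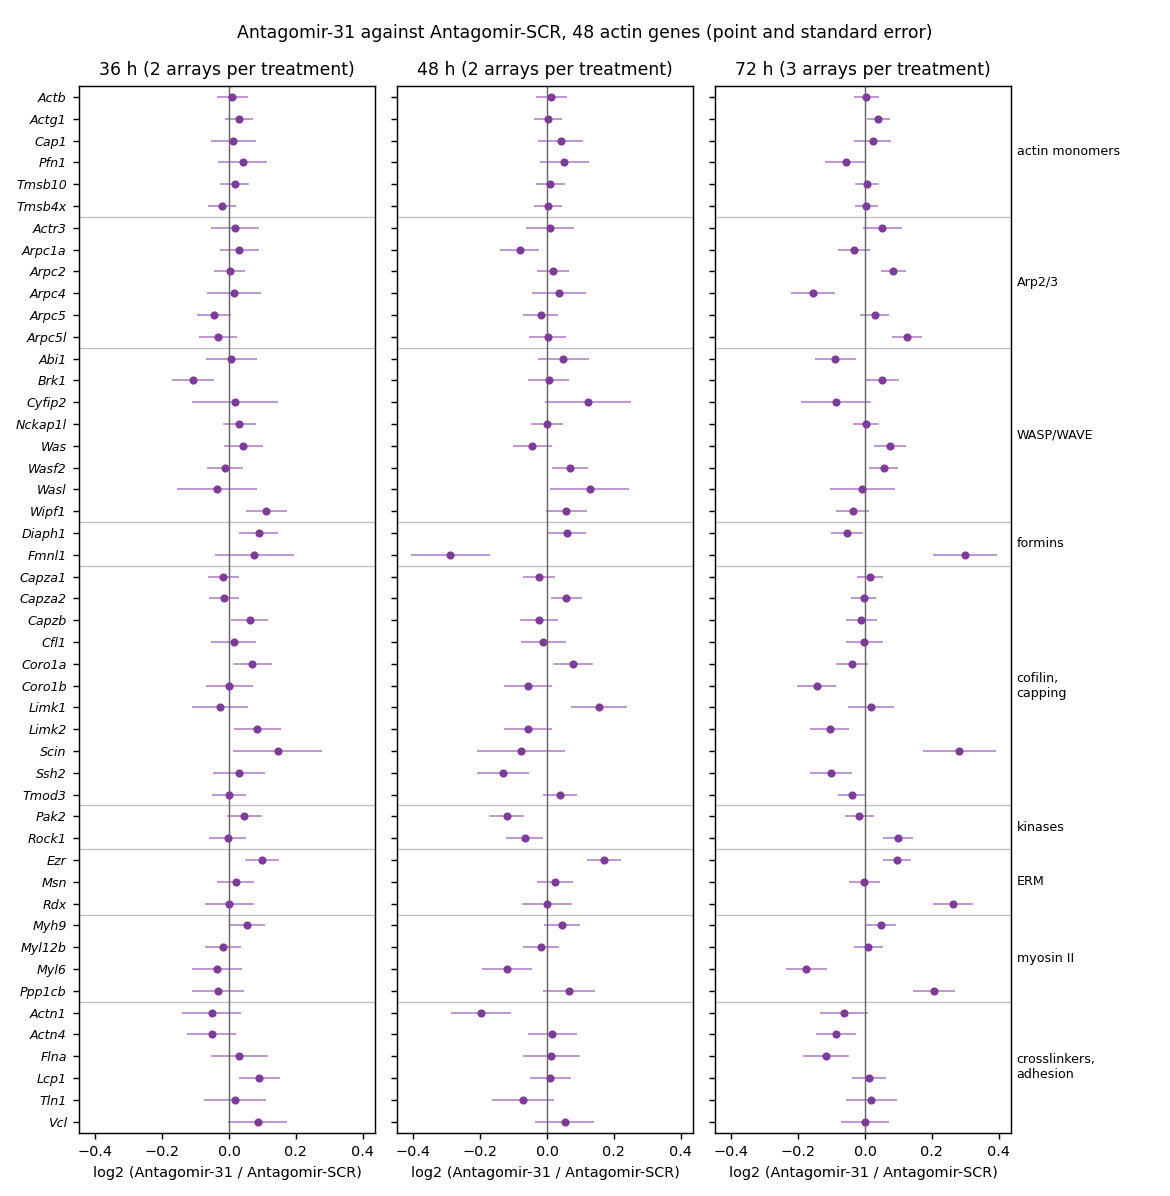
Log2 fold change of Antagomir-31 over Antagomir-SCR (horizontal axis) of each of the 48 members (rows, by role) at 36 h, 48 h and 72 h, with points for the estimate and bars for its standard error. Most points lie near 0 at all 3 times, and the widest at 72 h are Fmnl1 (0.30), Scin (0.28), Rdx (0.26) and Ppp1cb (0.21) on the higher and Myl6 (-0.18) on the lower side.

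The ERM proteins ezrin, moesin and radixin bind filaments with one end and membrane proteins with the other. Rdx had deposited intensities of 1715, 1732 and 1843 on the arrays of Antagomir-31 treated cells at 72 h, against 1362, 1514 and 1539 with Antagomir-SCR. The arrays did not overlap, yet with a fold change of 0.26 on the log2 scale (standard error 0.061, 95% interval 0.13 to 0.39) the adjusted p in limma was 0.059. This p lay between 0.0076 and 0.15 over 15 alternatives and fell below the threshold in 3 of them, the filter at a mean log2 of 6 (0.030), quantile normalization (0.043) and a variance prior with a trend (0.0076). At the earlier times the treatments overlapped: Rdx had 1457 and 1365 with Antagomir-31 against 1385 and 1434 with Antagomir-SCR at 36 h, and 1575 and 1394 against 1522 and 1444 at 48 h. The effect at 72 h exceeded that at 36 h by 0.26 (standard error 0.096, adjusted p = 0.37 in limma) and that at 48 h also by 0.26 (adjusted p = 0.40), so the difference between times did not pass.

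The probe sets of Rdx did not move alike. A second one had 606, 649 and 576.5 with Antagomir-31 and 664, 594 and 513 with Antagomir-SCR at 72 h, a log2 difference of 0.05. The remaining one had 1551, 1591 and 1546 with Antagomir-31 and 1599, 1520.0 and 1404 with Antagomir-SCR, also 0.05. On both, the treatments overlapped, so the separation of Rdx rests on 1 of its 3 probe sets.

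Ezr was the member with the smallest p at 36 h, at 48 h and on the average over the times. It had 1901 and 1858 with Antagomir-31 against 1768 and 1743 with Antagomir-SCR at 36 h, and 2030.4 and 1991 against 1797 and 1777 at 48 h. At 72 h it had 2376, 2287 and 2313 with Antagomir-31 and 2063, 2216 and 2254 with Antagomir-SCR. At each of these times every array of Antagomir-31 treated cells was above every array of the control. The log2 fold changes were 0.10 (standard error 0.051, adjusted p = 0.99), 0.17 (standard error 0.051, adjusted p = 0.64) and 0.10 (standard error 0.042, adjusted p = 0.26), and their average was 0.12 (standard error 0.028, adjusted p = 0.15 in limma, 0.032 to 0.39 over 23 alternatives, of which only the trended variance prior passed). A dimmer probe set of Ezr had log2 differences of 0.05, -0.15 and 0.12 at the 3 times. Msn, the gene of moesin, had log2 fold changes of 0.02, 0.02 and -0.00 on its chosen probe set. Its dimmer probe set had 381, 323 and 606 with Antagomir-31 against 571, 643 and 824 with Antagomir-SCR at 72 h, a log2 difference of -0.67 with overlapping arrays, so the probe sets of Msn did not move alike.

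Members of the myosin II group differed in direction at 72 h. Ppp1cb had 1216, 1255 and 1268 with Antagomir-31 against 992, 1096 and 1159.9 with Antagomir-SCR, with no overlap (log2 fold change 0.21, standard error 0.063, adjusted p = 0.12). Its other 2 probe sets with a mean log2 of at least 6 had 0.22 and 0.16. Myl6, an essential light chain, had 105, 98.8 and 109 against 113, 115 and 127, again without overlap (-0.18, standard error 0.061, adjusted p = 0.16), and -0.11 on the average over times (adjusted p = 0.41). Neither passed the test, although Ppp1cb did with a trended variance prior (adjusted p = 0.039, range over 15 alternatives 0.039 to 0.26). Myl6 was read from 1 probe set, with a mean log2 of 6.67. A further 2 probe sets of Myl6 carried other symbols as well (Gm5526, Gm8894) and were not used. The heavy chain Myh9 had 0.05 and the regulatory light chain Myl12b had 0.01 at 72 h.

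In the Arp2/3 complex, subunits lay on both sides at 72 h. Arpc5l, a variant of the Arpc5 subunit, had 1242, 1224 and 1159.6 with Antagomir-31 and 1168, 1112 and 1048 with Antagomir-SCR (log2 fold change 0.12, standard error 0.045, adjusted p = 0.18 in limma). Arpc4, a core subunit, had 1555, 1622 and 1641 with Antagomir-31 against 1904, 1800.5 and 1675 with Antagomir-SCR (-0.16, standard error 0.066, adjusted p = 0.24). Arpc4 did not overlap between treatments and had the same difference, -0.16, on its other probe set, whereas the arrays of Arpc5l overlapped. The other measured subunits, Actr3, Arpc1a, Arpc2 and Arpc5, had log2 fold changes of -0.03 to 0.08.

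The formin Fmnl1 had 30.0 and 33.8 with Antagomir-31 against 37.2 and 40.7 with Antagomir-SCR at 48 h, and 59.2, 52.0 and 48.9 against 46.1, 44.8 and 39.0 at 72 h. Its arrays did not overlap at either time, lower with Antagomir-31 at 48 h (-0.29, standard error 0.12, adjusted p = 0.78) and higher at 72 h (0.30, standard error 0.096, adjusted p = 0.14). The difference between these effects was 0.59 on the log2 scale (standard error 0.15, 95% interval 0.26 to 0.92), with an adjusted p of 0.25 in limma. It was measured by 1 dim probe set. Diaph1, the formin mDia1, had 0.09, 0.06 and -0.05 at the 3 times, whereas a dimmer probe set of Diaph1 had -0.43 at 72 h.

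Scin encodes scinderin, a calcium-dependent severing protein of the gelsolin family. At 72 h it had 25.5, 27.1 and 19.6 with Antagomir-31 against 18.2, 19.2 and 21.6 with Antagomir-SCR, so that the treatments overlapped (log2 fold change 0.28, standard error 0.11, adjusted p = 0.20). Replicate 4 of Antagomir-31 was the low array, and without it the value was 0.42 with an adjusted p of 0.049 (range over 14 alternatives 0.049 to 0.48). Every Scin intensity at 72 h lay below the array medians of that time, 27.9 to 28.4. Scin was thus near background there, and the difference and its p cannot be read as an antagomir effect. It passed the filter on its mean over all arrays, through the higher intensities at 36 h and 48 h. Of the remaining filament-shortening and capping genes at 72 h, Coro1b, which removes Arp2/3 branches, had 575, 527 and 597 with Antagomir-31 and 601, 607 and 669.6 with Antagomir-SCR (-0.15, standard error 0.058, adjusted p = 0.22). Cofilin itself (Cfl1) had -0.00, and the capping protein genes Capza1, Capza2 and Capzb had -0.01 to 0.01, on their chosen probe sets. The other probe sets with a mean log2 of at least 6 had -0.16 for Cfl1, 0.20 for Capza1, 0.07 for Capza2, and -0.06 and -0.11 for Capzb.

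**Figure D2:**
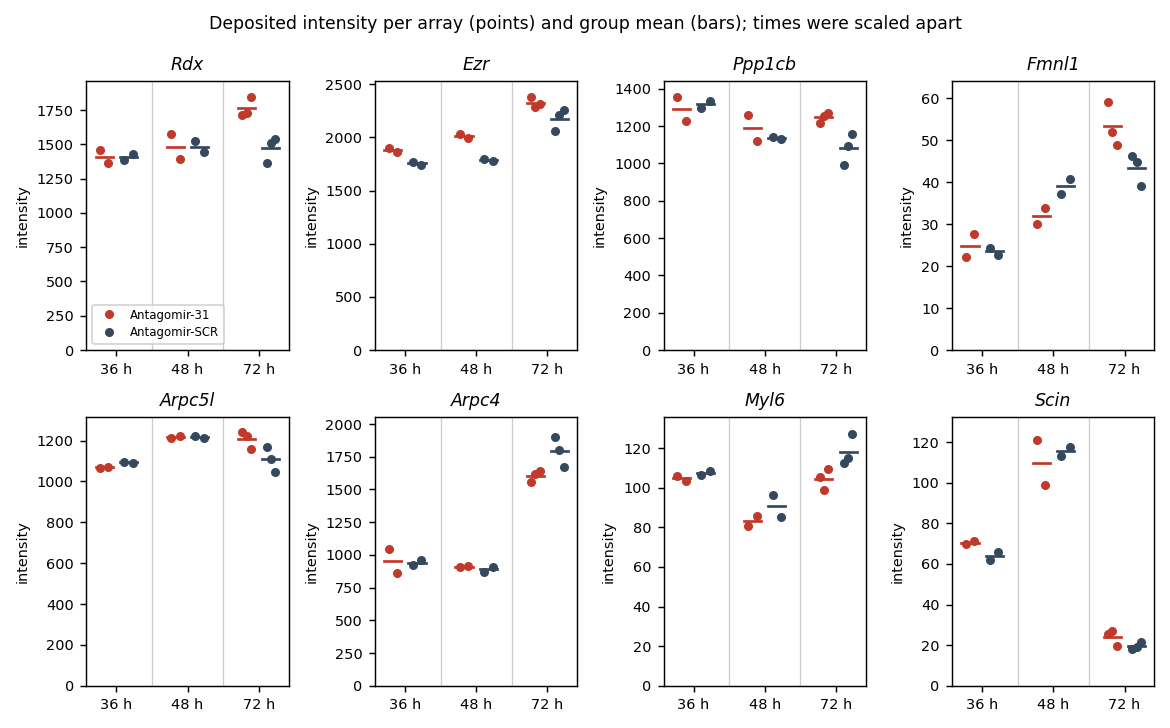
Deposited intensity (vertical axis, linear, from 0) of 8 members on each array at 36 h, 48 h and 72 h, with Antagomir-31 left of Antagomir-SCR, points for arrays and bars for group means. At 72 h the treatments separate for Rdx, Ezr, Ppp1cb, Fmnl1, Arpc4 and Myl6 and overlap for Arpc5l and Scin, and levels at different times were scaled apart.

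In the remaining groups the member with the smallest p at 72 h did not pass either. Rock1, a kinase that acts on myosin light chains, had 1300.4, 1263 and 1349 with Antagomir-31 and 1259, 1246 and 1149 with Antagomir-SCR, without overlap (log2 fold change 0.10, adjusted p = 0.28). Was, the gene of WASP, had 787, 713 and 747 against 722, 696 and 713 (0.08, adjusted p = 0.45). Flna, which crosslinks filaments into a network, had 666, 572 and 641 against 629, 659.6 and 753 (-0.12, adjusted p = 0.41). Both Was and Flna overlapped between treatments. The putative target Actg1, a cytoplasmic actin, had 12506, 12470.0 and 12353 with Antagomir-31 against 12176, 12119 and 12029 with Antagomir-SCR, a separation without overlap but of only 0.04 on the log2 scale (95% interval -0.03 to 0.11, adjusted p = 0.59). The other cytoplasmic actin, Actb, had 0.00 (95% interval -0.08 to 0.09).

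At 36 h the members with the smallest p after Ezr were Wipf1, whose protein WIP binds and protects WASP, and Brk1, the smallest WAVE subunit. Wipf1 had 1490.0 and 1501 with Antagomir-31 against 1396 and 1374 with Antagomir-SCR, without overlap (log2 fold change 0.11, standard error 0.061). Brk1 had 1511 and 1686 against 1682 and 1760.4 (-0.11, standard error 0.062), with overlapping arrays. At 48 h Pak2, a kinase activated by Rac and Cdc42, had 555 and 540.1 with Antagomir-31 against 606 and 585 with Antagomir-SCR, without overlap (-0.12, standard error 0.052, adjusted p = 0.81 in limma).

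Arrays of the treatments did not overlap for 10 members that were higher and 2 that were lower with Antagomir-31 at 36 h, 8 higher and 7 lower at 48 h, and 10 higher and 3 lower at 72 h. Of all genes tested, 29.3%, 33.2% and 24.2% did not overlap at these times, so these counts are near the background. Averaged over the times, 0 members passed, against 0.0183% of all genes. A change of the effect between 36 h and 72 h was called in 0 members (0.0183% of all genes), and between 48 h and 72 h also in 0 (0.0366%). At an unadjusted p under 0.05 these contrasts held 2, 3 and 3 members, against 9.47%, 10.8% and 10.1% of all genes.

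A further list of the same machinery was read beside the members. Of 38 measured other actin regulators, 1 passed at 72 h (2.63%, against 1.10% of all genes): Evl, an Ena/VASP protein that speeds filament growth, averaged 96.5 ± 5.81 with Antagomir-31 and 153 ± 11.1 with Antagomir-SCR (SD, n = 3 each). It was lower with Antagomir-31 by -0.66 on the log2 scale (standard error 0.11, adjusted p = 0.021 in limma). That call was lost without replicate 2 of Antagomir-31 (-0.69, adjusted p = 0.089), replicate 3 of Antagomir-31 (-0.61, 0.075) or replicate 3 of Antagomir-SCR (-0.60, 0.083) and with no filter on dim genes (0.056), in a range of 0.0015 to 0.089 over 15 alternatives. The lowering of Evl belongs to 72 h, since no gene passed at 36 h or 48 h. From 36 h to 48 h, Evl rose more with Antagomir-31 (1.60) than with Antagomir-SCR (1.08), on the log2 scale after quantile normalization. After Evl at 72 h, the actin-binding Ablim1 (0.21, adjusted p = 0.063), Cotl1 (0.17) and the class I myosin Myo1f (-0.15) came next.

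The same genes moved more over time than with the antagomir, in both treatments. Between 48 h and 72 h the severing protein gene Scin fell, the vinculin gene Vcl fell, and Pfn1, Actn1, Arpc4, Myh9 and Was rose, in the arrays of Antagomir-31 and of Antagomir-SCR treated cells, which share no array. In this step 28 of 48 members passed with Antagomir-31 (16 rose, 12 fell) and 25 with Antagomir-SCR (13 rose, 12 fell). These shares, 58.3% and 52.1%, were below the background of 68.0% of all genes tested with Antagomir-31 (35.0% rose, 32.9% fell) and 68.0% with Antagomir-SCR (33.1% rose, 34.9% fell). Between 36 h and 48 h, 11 members passed with Antagomir-31 (22.9%; 7 rose, 4 fell) and 8 with Antagomir-SCR (16.7%; 7 rose, 1 fell), against 26.6% (14.3% rose, 12.3% fell) and 26.9% (15.5% rose, 11.4% fell) of all genes. The members' median log2 change between 48 h and 72 h was -0.004 with Antagomir-31 and -0.026 with Antagomir-SCR, beside 0.012 and -0.006 over all genes tested.

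The direction of the smaller changes depended on how the times were put on 1 scale, because the median of all genes on the deposited scale was higher at 72 h than at 48 h by 0.33 with Antagomir-31 and by 0.32 with Antagomir-SCR (log2). With quantile normalization 16 members rose and 12 fell with Antagomir-31 between 48 h and 72 h, with intensities as deposited 34 and 3, and with each array centred on its median 8 and 25. With Antagomir-SCR these numbers were 13 and 12, 34 and 4, and 9 and 24. Among all genes called in this step, the share that rose was 51.6%, 82.7% and 44.4% with Antagomir-31 and 48.7%, 82.5% and 46.2% with Antagomir-SCR on these scales. Between 36 h and 48 h the shares were 53.8%, 33.8% and 73.9% with Antagomir-31 against 57.7%, 37.5% and 74.5% in the controls. The members that rose and fell were 7 and 4, 6 and 8, and 11 and 2 with Antagomir-31 and 7 and 1, 4 and 7, and 10 and 1 with Antagomir-SCR. Time and the set of arrays hybridized cannot be told apart. Between the 3′ and the 5′ end of the actin control transcript, a sign of RNA integrity, the log2 ratio was 0.21 to 0.27 at 72 h and 0.32 to 0.43 at the earlier times, and the summed intensity of the Th1 markers with Antagomir-31 lay between 12535 and 13003 at 72 h, against 17435 to 19574 earlier, and in controls between 13183 and 13356, against 17882 to 19067 earlier. The summed intensity of the stromal markers, nearly all of it Vim, lay between 10916 and 11227 with Antagomir-31 at 72 h, against 6917 to 6996 earlier, and between 10455 and 10716 in controls, against 6508 to 6765 earlier. Most of the Th1 sum was Ifng, with a geometric mean of 12229 over all arrays, against 1456 for the next brightest marker, Il18r1. The sums of both marker lists are of deposited intensities, so they include the higher scale of the 72 h arrays. After quantile normalization, of 4 macrophage and monocyte markers that passed the filter, 2 fell with Antagomir-31 and 3 fell with Antagomir-SCR from 48 h to 72 h. The part of these in the time steps was not tested. Under all 3 scalings, Arpc4, Was, Fmnl1, Pfn1, Coro1b, Myh9, Tln1 and Actn1 rose and Limk1, Vcl and Scin fell with Antagomir-31 between 48 h and 72 h. With Antagomir-SCR, Arpc4, Was, Pfn1, Capza2, Coro1a, Coro1b, Myh9, Tln1 and Actn1 rose and Arpc5l, Limk1, Vcl and Scin fell. In each treatment, directions given below for other called members in this step hold after quantile normalization and not under all 3 scalings.

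Different probe sets of a gene did not always move the same way. Of the 28 members called with Antagomir-31 from 48 h to 72 h, 18 had another probe set of mean log2 6 or more, and in 8 of them such a probe set took the opposite sign (Abi1, Capza1, Diaph1, Limk1, Myh9, Tln1, Tmod3 and Wasl). With Antagomir-SCR it was 7 of 18, the same genes without Capza1. From 36 h to 48 h it was 3 of 7 with Antagomir-31 (Limk1, Tmod3 and Wipf1) and 1 of 4 with Antagomir-SCR (Tmod3). The directions of these genes hold for the chosen probe set alone. Members that were not called are left out of these counts, and their probe sets could differ too.

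**Figure D3:**
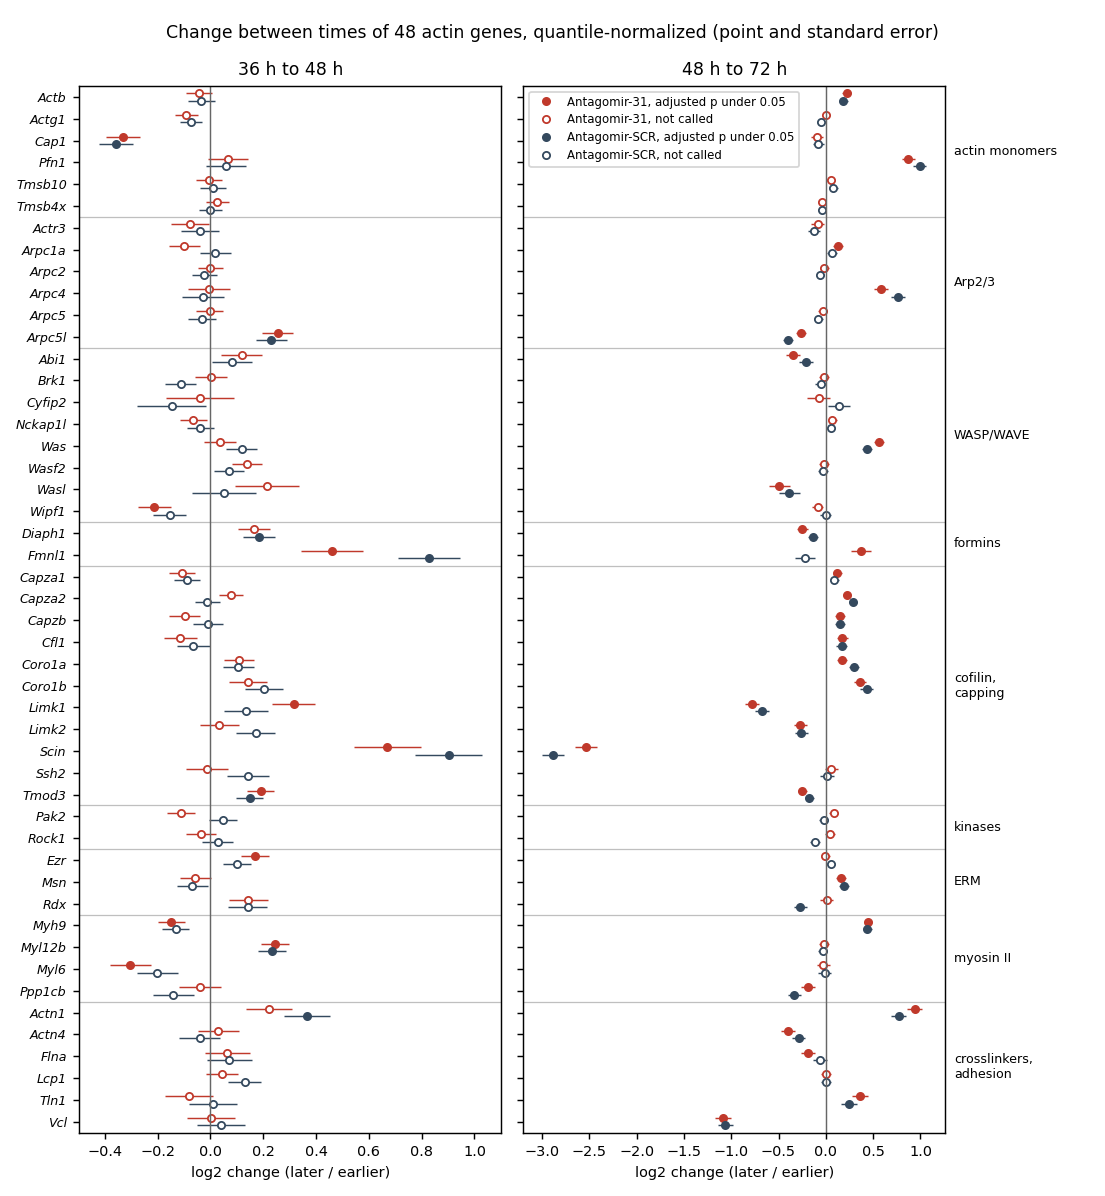
Log2 change of each of the 48 members (rows, by role) between 36 h and 48 h and between 48 h and 72 h after quantile normalization, with Antagomir-31 above Antagomir-SCR, bars for the standard error and filled points for an adjusted p under 0.05. Scin falls furthest from 48 h to 72 h (-2.54 for Antagomir-31, -2.88 for Antagomir-SCR), and Pfn1 and Actn1 rise most.

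Scin had the widest course. After quantile normalization it had 75.7 and 78.7 at 36 h, 135 and 112 at 48 h and 22.6, 23.8 and 17.7 at 72 h with Antagomir-31. With Antagomir-SCR it had 67.3 and 71.8, then 129 and 131, then 16.5, 17.1 and 19.4. In both treatments the 48 h arrays were the highest and the 72 h arrays the lowest, with no overlap between times. The deposited intensities of Scin at 72 h lay below the array medians, so the size of its fall to 72 h is uncertain. Scin rose by 0.67 with Antagomir-31 (standard error 0.13, adjusted p = 0.0024) and 0.90 with Antagomir-SCR (adjusted p = 3.9e-04) from 36 h to 48 h and fell by 2.54 (standard error 0.12, adjusted p = 6.8e-10) and by 2.88 (adjusted p = 1.9e-10) from 48 h to 72 h on the log2 scale.

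Limk1, which encodes a kinase that inactivates cofilin, had 94.1 and 95.6, then 113 and 123, then 74.8, 68.1 and 63.8 with Antagomir-31, and 96.3 and 98.7, then 99.2 and 115, then 64.4, 69.2 and 67.8 with Antagomir-SCR at 36 h, 48 h and 72 h. It fell by 0.78 with Antagomir-31 (adjusted p = 1.0e-06) and by 0.67 with Antagomir-SCR (adjusted p = 4.0e-06) from 48 h to 72 h. Its other probe set with a mean log2 of at least 6 had 0.15 and 0.10 in this step, so the fall belongs to 1 probe set. Limk2 fell too, by 0.27 and 0.26 after quantile normalization, but had 0.09 and 0.14 on the deposited scale. Cfl1 and the capping protein genes Capza2 and Capzb rose in both treatments by 0.15 to 0.29 after quantile normalization, but of these only Capza2 with Antagomir-SCR rose under all 3 scalings. Tmod3, which caps the slow-growing filament end, fell by 0.25 with Antagomir-31 and by 0.17 with Antagomir-SCR, where another probe set had 0.07 and 0.32. On the deposited scale the chosen probe set of Tmod3 had 0.02 and 0.10. Both coronin genes rose, Coro1b by 0.36 and Coro1a by 0.17 with Antagomir-31, against 0.43 and 0.30 with Antagomir-SCR. With median centring Coro1a had 0.01 with Antagomir-31. Capza1 was called with Antagomir-31 only (0.12, against 0.09 with Antagomir-SCR), and Ssh2, whose phosphatase reactivates cofilin, was called in neither (0.06 and 0.01).

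Among the genes that handle monomers, Pfn1 (profilin 1) had 2867 and 2567 at 36 h, 2871 and 2808 at 48 h and 5528, 4707 and 5358 at 72 h with Antagomir-31. With Antagomir-SCR it had 2705 and 2562, then 2659 and 2822, then 5440.1, 5505 and 5386. All 72 h arrays were above all earlier arrays in both treatments, and those at 36 h and 48 h overlapped. Pfn1 rose by 0.87 with Antagomir-31 (standard error 0.069, adjusted p = 1.6e-07) and 0.99 with Antagomir-SCR (adjusted p = 4.3e-08) in the last step. Cap1, which recycles monomers together with cofilin, had 847 and 897 at 36 h against 715 and 671 at 48 h with Antagomir-31, and 879 and 842 against 635 and 709 with Antagomir-SCR. It was lower at 48 h on every array and fell by 0.33 with Antagomir-31 (adjusted p = 0.0034) and by 0.36 with Antagomir-SCR (adjusted p = 0.0020). Actb rose by 0.22 with Antagomir-31 and 0.18 with Antagomir-SCR from 48 h to 72 h, a value bounded by the quantile step, which gives arrays the same value where Actb holds the same rank (13928 on all 4 arrays at 48 h). The same limit holds for the chosen probe sets of the thymosin genes Tmsb4x and Tmsb10, which had 15665 and 15331 on all 4 arrays at 48 h, so nothing is read from their changes. A pair of less bright probe sets of Tmsb10 had 0.37 and 0.49 with Antagomir-31 and 0.46 and 0.45 with Antagomir-SCR from 48 h to 72 h. A less bright probe set of Actb had 0.17 with Antagomir-31 and 0.28 with Antagomir-SCR in this step. From 36 h to 48 h it had 0.52 and 0.43, against -0.04 and -0.03 on the chosen probe set of Actb. With median centring that chosen probe set had -0.01 and 0.01 from 48 h to 72 h. Actg1 had -0.00 and -0.05 in this last step after quantile normalization.

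For the nucleators, Arpc4 had 989 and 995 at 48 h and 1439, 1498 and 1508 at 72 h with Antagomir-31, and 950.0 and 987 at 48 h and 1751, 1653 and 1532 at 72 h with Antagomir-SCR. The times did not overlap, and Arpc4 rose by 0.58 with Antagomir-31 (standard error 0.073, adjusted p = 1.4e-05) and 0.76 with Antagomir-SCR (adjusted p = 9.7e-07). Its second probe set had 0.96 and 1.05. The variant subunit Arpc5l had 1119 and 1112, then 1326 and 1336, then 1152, 1125 and 1061 with Antagomir-31, and 1150.0 and 1123, then 1345 and 1321, then 1066, 1014 and 953 with Antagomir-SCR. It was highest at 48 h, and fell by 0.26 with Antagomir-31 (adjusted p = 7.8e-04) and by 0.40 with Antagomir-SCR (adjusted p = 2.0e-05) to 72 h. On the deposited scale these changes were -0.01 with Antagomir-31 (adjusted p = 0.83 in limma) and -0.14 with Antagomir-SCR (0.026). Arpc1a, with 0.13 and 0.07, was called with Antagomir-31 only, and Actr3, Arpc2 and Arpc5 were not called in either treatment, at -0.13 to -0.02. Other bright probe sets of Actr3 had 0.29 and 0.08 with Antagomir-31 and 0.25 and 0.10 with Antagomir-SCR.

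Among the activators of Arp2/3, Was had 466 and 455 at 48 h and 717, 647 and 675 at 72 h with Antagomir-31, and 475 and 474 at 48 h and 648, 631 and 642 at 72 h with Antagomir-SCR. It rose by 0.56 with Antagomir-31 (standard error 0.054, adjusted p = 1.0e-06) and 0.43 with Antagomir-SCR (adjusted p = 1.1e-05), with no overlap between times. Wasl, the widely expressed relative of Was, fell by 0.49 with Antagomir-31 (adjusted p = 0.0016) and by 0.39 with Antagomir-SCR (adjusted p = 0.0072), although on the deposited scale the change with Antagomir-31 was -0.14 (adjusted p = 0.25). The fall belongs to 1 probe set of Wasl, since 2 others of mean log2 6 or more had 0.23 and 0.35 with Antagomir-31 and 0.19 and 0.42 with Antagomir-SCR. In the WAVE complex the chosen probe set of Abi1 fell by 0.35 and by 0.21, but an almost equally bright one had 0.39 and 0.34. The chosen probe sets of Wasf2, Cyfip2, Nckap1l and Brk1 did not pass in either treatment. Others of mean log2 6 or more had 1.15 and 1.13 for Wasf2 and -0.35 and -0.33 for Brk1 (Antagomir-31 and Antagomir-SCR). For Cyfip2 they had 0.37 and 0.06 with Antagomir-31 and 0.43 and 0.06 with Antagomir-SCR. For Nckap1l the values were 0.02 and 0.04.

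Among the crosslinkers and adhesion genes, Vcl and Actn1 went opposite ways. Vcl, which strengthens the link between talin and actin, had 548 and 579.7 at 48 h and 284, 250.5 and 261 at 72 h with Antagomir-31. With Antagomir-SCR it had 599 and 494 at 48 h and 280.5, 260.2 and 243 at 72 h. The times were far apart, and Vcl fell by 1.09 with Antagomir-31 (standard error 0.083, adjusted p = 1.1e-07) and by 1.06 with Antagomir-SCR (adjusted p = 1.3e-07). Actn1, an α-actinin, had 67.9 and 59.9 at 48 h and 120.4, 122 and 124 at 72 h with Antagomir-31, and 78.0 and 69.3 at 48 h and 119, 122 and 134 at 72 h with Antagomir-SCR. It rose by 0.94 with Antagomir-31 (standard error 0.080, adjusted p = 3.2e-07) and 0.77 with Antagomir-SCR (adjusted p = 2.1e-06), and its 2 dimmer probe sets had 0.51 to 0.59. The second α-actinin, Actn4, fell by 0.40 and 0.29. Tln1 (talin 1) rose by 0.36 and 0.24 on the chosen probe set, whereas another of its probe sets with a mean log2 of at least 6 had -1.30 and -1.28. Flna was called with Antagomir-31 only (-0.19, against -0.06 with Antagomir-SCR), and Lcp1, which bundles filaments, had 0.00 in both on its chosen probe set. Another bright probe set of Lcp1 had 0.41 with Antagomir-31 and 0.65 with Antagomir-SCR.

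The heavy chain of myosin IIA, Myh9, had 2069 and 2129.6 at 48 h and 2913, 2819.9 and 2842 at 72 h with Antagomir-31, and 2034 and 2047 at 48 h and 2691, 2842 and 2755 at 72 h with Antagomir-SCR. It rose by 0.45 with Antagomir-31 (standard error 0.047, adjusted p = 2.5e-06) and 0.44 with Antagomir-SCR (adjusted p = 2.9e-06). Of its 3 other probe sets with a mean log2 of at least 6, the changes were 0.40, 0.70 and -0.79 with Antagomir-31 and 0.52, 0.74 and -0.73 with Antagomir-SCR, so they disagree. Ppp1cb fell by 0.19 with Antagomir-31 and by 0.33 with Antagomir-SCR after quantile normalization, but had 0.07 and -0.07 on the deposited scale. The kinase genes Rock1 (0.05 and -0.12) and Pak2 (0.08 and -0.02) did not pass on their chosen probe sets. Other bright probe sets of Rock1 had -0.18, -0.36 and -0.67 with Antagomir-31 and -0.19, -0.49 and -0.50 with Antagomir-SCR. Another bright one of Pak2 had 0.68 and 0.48. Of the ERM genes, Msn rose by 0.16 and 0.20, and Rdx had 1721 and 1521 at 48 h and 1579, 1603 and 1698 at 72 h with Antagomir-31 (0.01), against 1658 and 1573 at 48 h and 1250.5, 1376 and 1399 at 72 h with Antagomir-SCR, where it fell by 0.27 (adjusted p = 0.0031 in limma). On the deposited scale Rdx had 0.25 with Antagomir-31 (adjusted p = 0.0042 in limma) and -0.01 with Antagomir-SCR (0.87). Its other probe sets had -0.43 and 0.06 with Antagomir-31 and -0.32 and -0.07 with Antagomir-SCR. The formin Fmnl1 rose by 0.37 with Antagomir-31 (adjusted p = 0.0083) and had -0.22 with Antagomir-SCR (adjusted p = 0.087), whereas Diaph1 fell by 0.25 and by 0.13 on the chosen probe set and had 0.08 and 0.31 on another. On the deposited scale the chosen probe set of Diaph1 had -0.00 and 0.11. For Rdx and Fmnl1 the difference between the treatments did not pass after adjustment over all genes in limma (adjusted p = 0.40 for Rdx and 0.25 for Fmnl1).

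**Figure D4:**
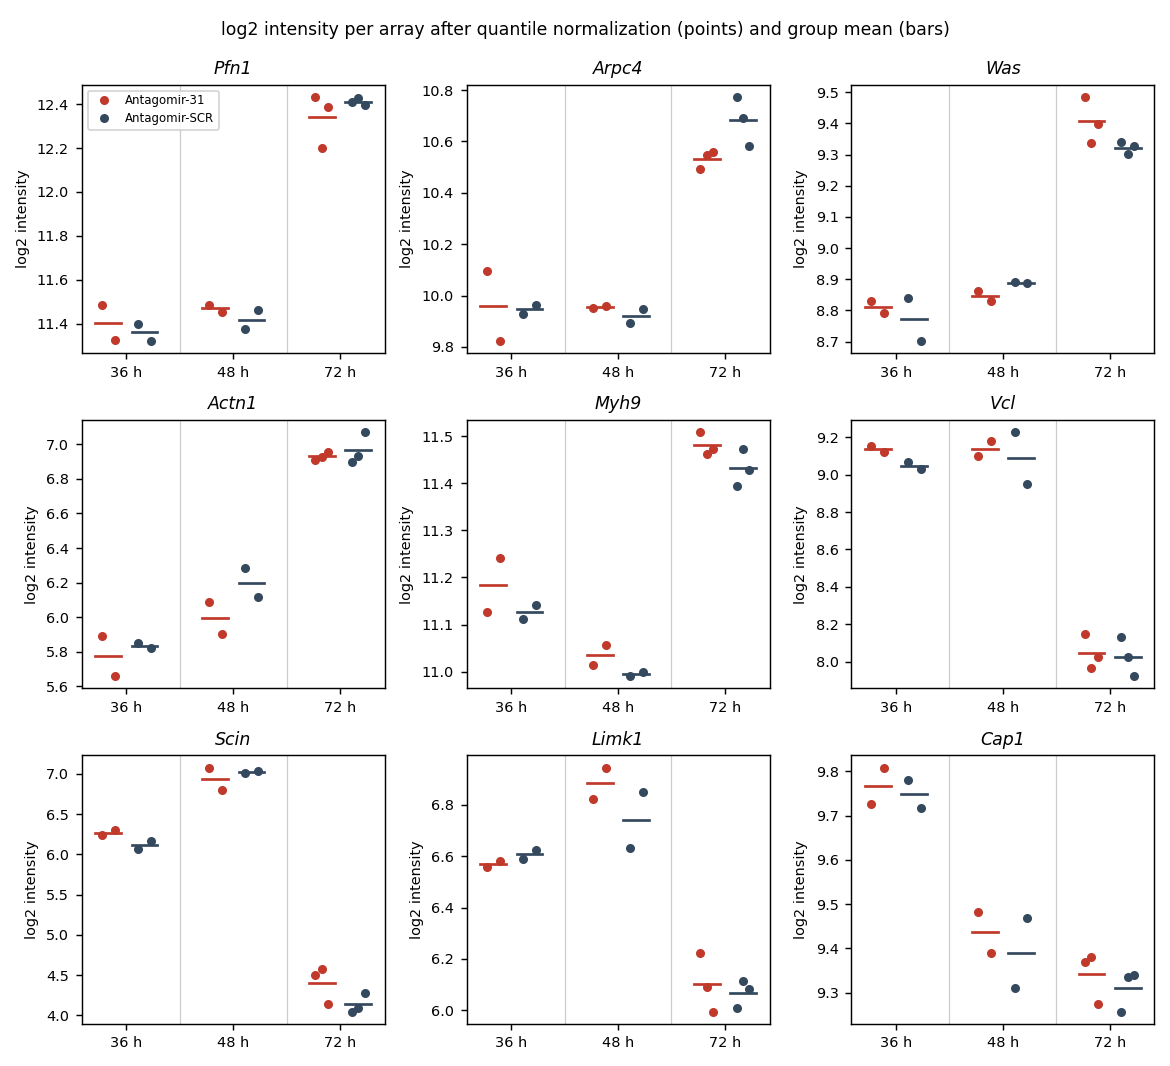
Log2 intensity after quantile normalization (vertical axis, not from 0) of 9 members on each array at 36 h, 48 h and 72 h, with Antagomir-31 left of Antagomir-SCR, points for arrays and bars for group means. Pfn1, Arpc4, Was, Actn1 and Myh9 are higher and Vcl, Scin and Limk1 lower on every array at 72 h than at 48 h, and Cap1 is lower at 48 h than at 36 h.

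Between 36 h and 48 h the changes were smaller. Besides Scin and Cap1, Fmnl1 had 23.5 and 29.5 at 36 h and 34.2 and 38.3 at 48 h with Antagomir-31, and 25.7 and 24.0 at 36 h and 42.2 and 46.1 at 48 h with Antagomir-SCR. It rose by 0.46 with Antagomir-31 (adjusted p = 0.013) and 0.83 with Antagomir-SCR (adjusted p = 4.3e-04). Myl12b, the regulatory light chain, had 2153 and 2039.7 at 36 h and 2453 and 2510.2 at 48 h with Antagomir-31, and 2205 and 2039.7 at 36 h and 2572 and 2412 at 48 h with Antagomir-SCR, and rose by 0.24 (adjusted p = 0.0059) and 0.23 (adjusted p = 0.0073). Arpc5l rose by 0.25 and 0.23, and Tmod3 by 0.19 and 0.15. With Antagomir-31 alone Limk1 (0.31), Ezr (0.17), Myl6 (-0.30), Wipf1 (-0.21) and Myh9 (-0.15) were called, and with Antagomir-SCR alone Actn1 (0.37) and Diaph1 (0.18), without a test of the difference between treatments. For Limk1 and Wipf1 another probe set ran the opposite way (-0.48 and 0.23). The call of Myh9 sat at the threshold (adjusted p = 0.050).

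With Antagomir-SCR the early calls of Scin, Fmnl1 and Cap1 held when any 1 array was left out. The others did not: Actn1 was lost without the first 48 h replicate (adjusted p = 0.089), Arpc5l and Myl12b without the second 36 h replicate (0.067 and 0.071) or the first 48 h replicate (0.072 and 0.076), and Diaph1 and Tmod3 without any 1 of the 4 arrays (0.083 to 0.16 and 0.081 to 0.20). With Antagomir-31, Scin, Cap1 and Arpc5l held. Fmnl1 was lost without the first 36 h replicate (0.30, adjusted p = 0.13) or the second 48 h replicate (0.38, 0.098), Myl12b without the second 36 h replicate (0.052), Myl6 without either 36 h replicate (0.059 and 0.053) or the first 48 h replicate (0.089), Limk1 without either 36 h replicate (0.069 and 0.055) or the second 48 h replicate (0.11), Wipf1 without the same arrays (0.093, 0.084 and 0.15) and Tmod3 without the second 36 h (0.084) or the first 48 h replicate (0.12). Ezr was lost without any 1 of the 4 arrays (0.073 to 0.16) and Myh9 without the second 36 h replicate (0.32), the first 48 h replicate (0.19) or the second 48 h replicate (0.097).

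Of the members called in each step, 6 were called in the same direction in both treatments from 36 h to 48 h (5 rose, 1 fell), which is 54.5% of the 11 with Antagomir-31 and 75% of the 8 with Antagomir-SCR. From 48 h to 72 h it was 24 (13 rose, 11 fell), 85.7% of 28 and 96% of 25. None was called in opposite directions. Over all genes tested these shares were 69.7% and 68.9% in the first step and 87.0% and 87.0% in the second. The 4 members with a CArG box in the printed windows did different things in the last step: Arpc4 rose and Vcl fell in both treatments, while Actg1 (-0.00 with Antagomir-31, -0.05 in controls) and Myl6 (-0.03 and -0.01) did not pass after quantile normalization. On the deposited scale Actg1 (0.20 and 0.16) and Myl6 (0.33 and 0.38) were called as rising. With median centring Actg1 was called as falling (-0.17 and -0.19), and Myl6 was not called (-0.04 and 0.03).

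The further list also moved mainly with time. Of the 38 other actin regulators, 11 rose and 14 fell with Antagomir-31 and 14 rose and 15 fell with Antagomir-SCR from 48 h to 72 h, which is 65.8% and 76.3%, against 68.0% of all genes in both. On the deposited scale 22 rose and 4 fell with Antagomir-31 and 23 and 6 with Antagomir-SCR, and with median centring 9 and 19 and 11 and 17. The heavy chain Myh10 of myosin IIB fell, with -1.78 and -1.98, as did the capping protein gene Capg, with -1.45 and -1.46, while the Ena/VASP gene Enah rose by 1.53 and 1.58 and Myo1f by 1.04 and 0.99. From 36 h to 48 h, 11 of the 38 rose and 2 fell with Antagomir-31 and 10 rose and 1 fell with Antagomir-SCR (34.2% and 28.9%, against 26.6% and 26.9% of all genes), led by Evl (1.60 and 1.08), Myo1f (0.72 and 0.82), and the adhesion adaptors Skap1 (0.49 and 0.45) and Fyb (0.47 and 0.44). On the deposited scale 8 rose and 5 fell with Antagomir-31 and 8 and 4 with Antagomir-SCR, and with median centring 13 and 0 and 14 and 0. Without probe sets ending in _x_at or _s_at, Myo1f had 0.25 with Antagomir-SCR (adjusted p = 0.060).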

How the data were processed

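Intensities of 45101 probe sets on 14 arrays were deposited by the authors, on a linear scale. Per the labels and the study's methods they were read with GCOS and normalized by RMA in the affy package, with versions not stated in the sources used here. The scale and the scaling within each time point were inferred from the values. Of the probe sets, 34945 had 1 gene symbol (1 symbol was updated), 932 had several, 9160 had none and 64 were controls. Only those with 1 symbol were used, and 48 members were among 18193 genes. The study's MAS5 calls were not used here, and the brightest 60% of genes by mean log2 intensity were kept instead. Tables were assembled in Python 3.11.15. Tests used limma 3.58.1 under R 4.3.3, in 1 fit of 6 groups of treatment and time on log2 intensities, two-sided, with Benjamini-Hochberg adjustment over 10915 genes and a threshold of 0.05. The fit was tested on simulated data. For the antagomir effect a member's standard error had a median of 0.061 at the earlier times and 0.050 at 72 h, a precision limited by the number of arrays. Members, role classes, the list of other actin regulators and the marker lists were chosen with earlier results of these data known. All members could be named. Full statistics went to members past the threshold (the 8 with the largest change where more passed), otherwise to the 3 with the smallest p, to the member of each role with the smallest p at 72 h, and to 4 genes of that list per contrast. A further list is not reported here. Alternatives changed the probe set, the filter, the scaling, the variance prior, the arrays fitted and the replicate block.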

Additional observations from a re-analysis of the deposited data

How the results depend on the processing

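The absence of members past the threshold held at 36 h, at 48 h and in the contrasts of 72 h with 36 h and 48 h under every alternative that was run. At 72 h 1 member passed when genes had to reach a mean log2 of 6 and 1 with quantile normalization over all arrays (Rdx in both), 2 passed with a trend in the variance prior (Rdx and Ppp1cb), and leaving out 1 array gave 0 to 1 (Scin, without Antagomir-31 replicate 4). Scin lay below the array medians at 72 h. On the average over times 1 passed with the trend (Ezr). Of the time steps, 13 members passed with Antagomir-SCR from 36 h to 48 h with the trend and 38 from 48 h to 72 h with intensities as deposited. Leaving out 1 array gave, from 36 h to 48 h, 4 to 7 members in Antagomir-31 and 4 to 6 in Antagomir-SCR treated cells (7 without the first and 4 without the second 36 h replicate, 7 without the first and 6 without the second 48 h replicate of Antagomir-31, and 4 without the second 36 h or the first 48 h replicate of Antagomir-SCR), and 20 to 25 and 20 to 24 from 48 h to 72 h.

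Over all genes, 120 passed at 72 h, against 14 with no filter on dim genes, 283 with a mean log2 of at least 6, 422 with the trend, 11 with only the arrays compared and 9 to 100 with 1 array left out (9 and 10 without replicates 2 and 3 of Antagomir-31, and 42, 10 and 47 without replicates 2, 3 and 4 of Antagomir-SCR). At 36 h, 1 passed with the trend and 0 to 1 with 1 array left out (1 without Antagomir-31 replicate 2). On the average 2 passed, against 1 with no filter, 14 with a mean log2 of at least 6, 36 with the trend and 1 to 5 with 1 array left out. For 72 h minus 36 h it was 2, against 0, 17, 46 and 0 to 7, and for 72 h minus 48 h it was 4, against 2, 14, 21 and 0 to 7, in the same order. These small counts moved with most single arrays: the highest came without replicate 4 of Antagomir-31 and replicates 2 and 4 of Antagomir-SCR at 72 h on the average, and without the second Antagomir-SCR replicate at 36 h or at 48 h in the contrasts of times. From 36 h to 48 h, 5116 passed with Antagomir-31 and 5097 with Antagomir-SCR with no filter, and 1735 to 1948 and 1657 to 2088 with 1 array left out. The exchange factor gene Arhgef2, which is no member, had -0.69 from 48 h to 72 h with Antagomir-SCR and turned to 0.10 (adjusted p = 0.22) without probe sets ending in _x_at or _s_at. The causes of these changes were not tested.

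Whether replicate numbers pair the samples is not given by the labels. The deviations of same-numbered arrays from their group means correlated at 0.05 at 36 h, -0.16 at 48 h and -0.07 to 0.05 at 72 h, and across 36 h and 48 h at 0.19 with Antagomir-31 and -0.10 with Antagomir-SCR. With 2 arrays per group, same-numbered and crossed arrays give the same value with opposite signs, so these values cannot settle the pairing. With the replicate block, 0 members passed for the antagomir at each time, on the average and in both contrasts of times, and 22 of all genes passed at 72 h, 1 on the average, 1 for 72 h minus 36 h and 1 for 72 h minus 48 h. From 36 h to 48 h, 8 members passed with Antagomir-31 and 6 with Antagomir-SCR under the block, and Tmod3 was not among them with Antagomir-31 (adjusted p = 0.062), nor were Tmod3 (0.12) and Diaph1 (0.062) with Antagomir-SCR. With crossed numbers at 48 h, a pairing chosen after the data were seen, 0 members and 0 genes passed at 48 h, 1 gene on the average and 0 for 72 h minus 48 h. No paired analysis was possible because the groups at 48 h and 72 h share only 1 replicate number, for the steps between these times. With 2 or 3 arrays per group, small differences could go undetected, and dim genes such as Fmnl1 and Scin had the widest errors, with a standard error of at most 0.13 at 36 h and 48 h.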
